A study of Homo sapiens with 6 samples.

Results

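The genes described here are the vascular endothelial growth factor (VEGF) family together with its receptors and co-receptors. They are the 10 gene identifiers, of 60546 in the deposited table, whose symbol is FLT1, KDR, FLT4, VEGFA, VEGFB, VEGFC, PGF, NRP1, NRP2 or EGFL7. The family was selected on the normalized reads of FLT1, which were at or near 0 in the libraries of 1 label, so the values of FLT1 are given as a description with no test. All 10 genes had a row in the table and passed the filter on low values, although FLT1 and VEGFC passed it only through the libraries in which they were high. A gene that passes in this way has to differ, so VEGFC too is given with no test.

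The libraries came from HCT-116, an established human colon carcinoma cell line, which was stably infected with the retroviral vector PMSCV and selected with puromycin. Total RNA was sequenced from 3 samples of HCT-116-PMSCV-GOLPH3, made to overexpress the Golgi phosphoprotein GOLPH3, and from 3 samples of HCT-116-PMSCV-Vector, which carried the empty vector. All cells were grown in DMEM with 10% FBS, their genotype label was wild type, and each group was a stably infected line sampled at 3 different generations, so the p-values measure the spread between samples of 1 line per group. The labels add P8, P12 and P13 to GOLPH3 replicates 1, 2 and 3, and P12, P11 and P13 to Vector replicates 1, 2 and 3, without saying what P stands for.

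VEGF ligands are secreted dimers that bind receptor tyrosine kinases on the cell surface. FLT1 (VEGFR1) binds VEGFA, VEGFB and placental growth factor with high affinity and is also made as a soluble form that holds ligand away from other receptors. KDR (VEGFR2) is the main signalling receptor of blood vessel endothelium, and FLT4 (VEGFR3) is the receptor for VEGFC in lymphatic endothelium. The neuropilins NRP1 and NRP2 bind both VEGF ligands and class 3 semaphorins and act as co-receptors. In colon carcinoma the tumour cells are best known as a source of VEGFA, whereas the receptors are classically described on vessels, with reports of some of them on tumour cells as well.

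The values are reads per gene divided by a size factor per library, called normalized reads here, and they carry no correction for gene length. Recovered reads totalled 15708846 to 21900764 per library, and 3 reads, the most that a count of 0 allows, are worth 2.47 to 3.29 normalized reads. Such limits cover counting error only. GOLPH3 itself ranged from 1271.5 to 1629.5 normalized reads under its own label and from 1472 to 1968 under Vector (log2 difference -0.31, adjusted p = 0.609 from limma), so its transcript was not detectably higher where the label names it, and the groups are called by their labels only. Genes known from the embryonic kidney and the HEK293 cell line moved with the labels too. The sum of 10 such genes was 279 to 512 normalized reads under GOLPH3 and 2777 to 8909 under Vector, and 7 of the 10 were lower under GOLPH3 and none higher (limma, adjusted p under 0.05), where 4.12% of all genes tested were lower. Of these 7, 6 passed the filter on low values only through the Vector libraries. PAX2 and PAX8, kidney transcription factors of the same list, had log2 differences of 0.17 (adjusted p = 0.853) and 0.97 (adjusted p = 0.302). IRS4, WT1, UCHL1 and NEFM were at 0 in every library labelled GOLPH3. How far this marker difference enters the results below was not tested.

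FLT1, FLT4 and VEGFC were expressed in every library labelled Vector. Under GOLPH3, FLT1 had at most 1 read and VEGFC none, while FLT4 had 2, 18 and 2 reads. The most abundant transcripts of the family, VEGFA, EGFL7 and VEGFB, were present in all 6 libraries, with group ranges that overlapped. KDR stayed at the edge of detection under both labels. Of the 8 genes other than FLT1 and VEGFC, 1 had an adjusted p under 0.05 in limma, FLT4, where 5.07% of the 26536 genes tested passed, 4.12% as lower and 0.953% as higher under GOLPH3. FLT4 also passed in DESeq2 and edgeR on the recovered reads, which called 8.68% and 6.58% of the genes they tested. The group ranges of FLT1 and VEGFC could not overlap, given how these genes passed the filter. Among the other 8 genes the ranges did not overlap for KDR, FLT4 and NRP2, against 22.0% of all genes tested. That share includes genes that passed the filter in the same way as FLT1. The family was listed with results of these libraries known, so these counts describe it and support nothing further. Its median log2 difference, FLT1 and VEGFC included, was -0.75, while the median over all genes tested was 0.02.

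**Figure D1:**
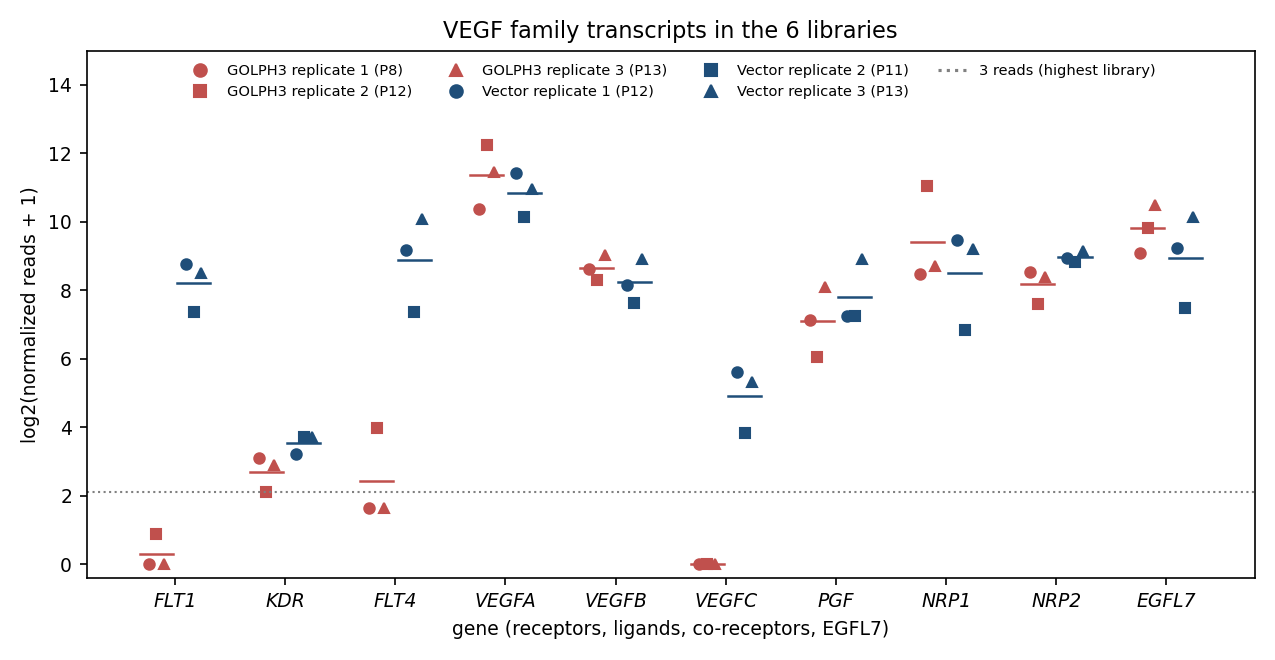
Level of each gene of the VEGF family in the 6 libraries, as log2(normalized reads + 1), with red for the 3 libraries labelled GOLPH3, blue for the 3 labelled Vector, marker shapes for the replicate number and a bar for the group mean. FLT1 and VEGFC lie under the dotted line of 3 reads in all 3 libraries labelled GOLPH3 and above it in all 3 labelled Vector, and KDR lies near that line in both.

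Among the receptors, FLT4 was lower under GOLPH3 by more than its spread within a label, FLT1 had at most 1 read there, and KDR, low under both labels, did not pass the test. FLT1 (ENSG00000102755; GRCh38 chromosome 13, 28300344 to 28495145, minus strand) had 0, 0.825 and 0 normalized reads in GOLPH3 replicates 1, 2 and 3, and 437, 165 and 365 in Vector replicates 1, 2 and 3. The value of 0.825 is 1 read. In such bulk RNA, fewer cells that make a transcript and less transcript per cell cannot be told apart. Summed over libraries the label GOLPH3 had 1 read and the label Vector 1001, a ratio of 1011 after scaling that rests on this 1 read. Against the limit of 3 reads in a library, the Vector mean was at least 100-fold higher. No interval is given for the ratio, since FLT1 led to the choice of the family. The fitted log2 difference of -7.93 depends on the pseudocount of 1 and was -7.91 between the P12 libraries and -8.51 between the P13 libraries. In the table, 688 genes (2.59% of those tested) shared this form, with at most 3 reads in each library labelled GOLPH3 and more than 3 in each labelled Vector, and 117 (0.441%) had the reverse form.

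The start of FLT1 is shown because the gene was well expressed under one label and at 0 or 1 read under the other, beside the starts of VEGFC, which had the same form, of KDR, which stayed low, and of VEGFB, which was abundant throughout. Each run is the 250 bases before the RefSeq transcript start in GRCh38.p14, read 5′ to 3′ on the strand of the gene. Capitals mark the cAMP response element TGACGTCA, the TATA motif TATAAA and the hypoxia response core ACGTG, searched on both strands.
FLT1, chr13:28495129-28495378, minus strand: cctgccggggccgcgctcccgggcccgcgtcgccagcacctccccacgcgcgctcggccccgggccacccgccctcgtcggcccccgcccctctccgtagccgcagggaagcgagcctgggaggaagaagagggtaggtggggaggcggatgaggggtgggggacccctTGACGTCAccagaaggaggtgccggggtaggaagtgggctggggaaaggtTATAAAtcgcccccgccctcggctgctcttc
VEGFC, chr4:176792923-176793172, minus strand: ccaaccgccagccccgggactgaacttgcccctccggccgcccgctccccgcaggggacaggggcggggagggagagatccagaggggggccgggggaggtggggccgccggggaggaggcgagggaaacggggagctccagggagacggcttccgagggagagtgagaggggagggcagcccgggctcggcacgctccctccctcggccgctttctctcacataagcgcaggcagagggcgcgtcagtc
KDR, chr4:55125596-55125845, minus strand: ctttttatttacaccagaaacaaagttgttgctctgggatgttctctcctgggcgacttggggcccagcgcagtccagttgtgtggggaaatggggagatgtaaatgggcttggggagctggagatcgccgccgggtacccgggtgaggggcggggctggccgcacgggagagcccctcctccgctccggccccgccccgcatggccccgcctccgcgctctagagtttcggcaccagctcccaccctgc
VEGFB, chr11:64234334-64234583, plus strand: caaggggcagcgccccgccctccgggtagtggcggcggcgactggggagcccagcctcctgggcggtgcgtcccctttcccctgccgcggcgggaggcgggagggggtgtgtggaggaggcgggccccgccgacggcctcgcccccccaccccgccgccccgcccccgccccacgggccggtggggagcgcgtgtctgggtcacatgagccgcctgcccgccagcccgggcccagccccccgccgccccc

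In the FLT1 run the cAMP response element began 81 bases before the start and the TATA motif 31 bases before it. Of 35116 such windows in the RefSeq table, 1.65% held a cAMP response element, 10.7% a TATA motif in either direction and 18.5% a hypoxia response core. None of these letters was found in the windows of VEGFC, KDR and VEGFB. The FLT1 run was 73.2% G and C with 25 CpG pairs, that of VEGFC 74% with 22, that of KDR 65.2% with 17 and that of VEGFB 82.8% with 30, where the median window had 58% and 11. All 4 starts were thus richer in CpG pairs than the median window, whether the gene was silent, low or abundant here. A window was found for 7 of the 10 genes.

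FLT4 (ENSG00000037280; chromosome 5, 180601506 to 180649624, minus strand) had 2.15, 14.8 and 2.13 normalized reads under GOLPH3, which are 2, 18 and 2 reads. Under Vector it had 575, 164 and 1091. The lowest library labelled Vector was thus well above the highest labelled GOLPH3. Its log2 difference was -6.45 (SE 0.77, 95% interval -8.12 to -4.77, adjusted p = 0.000218 from limma), and the adjusted p stayed between 4.39e-22 and 0.0123 over the alternatives. Single libraries moved the size of the difference, which was -7.23 without GOLPH3 replicate 2, -7.20 without Vector replicate 2 and -5.84 without Vector replicate 3. Within the P12 libraries it was -5.19 and within the P13 libraries -8.44.

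KDR (ENSG00000128052; chromosome 4, 55078259 to 55125595, minus strand) had 7.51, 3.30 and 6.40 normalized reads under GOLPH3 and 8.23, 12.1 and 12.01 under Vector. These values rest on 4 to 14 reads per library. The ranges did not overlap, but the log2 difference of -0.84 (SE 0.60, 95% interval -2.14 to 0.46) did not pass the test (adjusted p = 0.513, limma). How far the few reads and how far the spread between 3 libraries per group limited this was not tested.

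Among the ligands, VEGFC had no read under GOLPH3, and VEGFA, VEGFB and PGF did not pass the test. VEGFC, which acts mainly on lymphatic vessels through FLT4, occupies chromosome 4, 176683538 to 176792727 (ENSG00000150630, minus strand). It had no read in any library labelled GOLPH3 and 48.4, 13.1 and 38.6 normalized reads in Vector replicates 1, 2 and 3. Against the limit of 3 reads in a library, the Vector mean of 33.4 ± 18.2 (SD, n = 3) was at least 10.4-fold higher. The fitted log2 difference of -4.92 depends on the pseudocount. VEGFC was thus low even where it was present, and it was absent from the reads under the label in which FLT4, the receptor that binds it, was lower.

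VEGFA (ENSG00000112715; chromosome 6, 43770184 to 43786487, plus strand), the main blood vessel growth factor and a known hypoxia target, had 1335, 4869 and 2839 normalized reads under GOLPH3. Under Vector it had 2779, 1134 and 1975. The P12 library was the highest of each group, and the ranges overlapped widely. The means were 3015 ± 1773 and 1963 ± 823 (SD, n = 3), and the log2 difference of 0.52 (SE 0.46, 95% interval -0.48 to 1.52) did not pass the test (adjusted p = 0.610, limma). The difference was 0.81 within the P12 libraries and 0.52 within the P13 libraries. With the P number as a block VEGFA was called higher (log2 difference 0.67, adjusted p = 0.00539), a fit that compares only 2 pairs of libraries.

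VEGFB (ENSG00000173511; chromosome 11, 64234538 to 64238793, plus strand), a ligand of FLT1 known for its part in fatty acid uptake, had 397, 312 and 524 normalized reads under GOLPH3 and 285, 198 and 486 under Vector. The groups overlapped, with a log2 difference of 0.41 (SE 0.38, 95% interval -0.42 to 1.24, adjusted p = 0.632, limma). Within the P12 and P13 libraries it was 0.13 and 0.11. PGF (ENSG00000119630; chromosome 14, 74941834 to 74955784, minus strand), the placental growth factor that binds FLT1 and not KDR, had 140, 65.1 and 275 under GOLPH3 and 151, 151 and 481 under Vector. Its P13 library was the highest of each group. The log2 difference of -0.71 (SE 0.57, 95% interval -1.95 to 0.54, adjusted p = 0.574, limma) did not pass, whereas with the P number as a block it was -1.003 (adjusted p = 0.00313). The ligands of FLT1 were therefore present in all 6 libraries, including those in which FLT1 itself had 0 or 1 read.

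Both neuropilins were expressed in every library and neither passed the test. NRP2 (ENSG00000118257; chromosome 2, 205681990 to 205798133, plus strand), the neuropilin best known for VEGFC and lymphatic vessels, had 374, 194 and 333 normalized reads under GOLPH3 and 490, 451 and 561 under Vector. Every library labelled GOLPH3 was thus below every library labelled Vector. Its log2 difference of -0.79 (SE 0.33) had an unadjusted 95% interval under 0, from -1.51 to -0.06, but did not pass over all genes (adjusted p = 0.242, limma). It was -1.33 within the P12 libraries and -0.75 within the P13 libraries, and the fit with the P number as a block gave -1.04 (adjusted p = 0.000157).

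NRP1 (ENSG00000099250; chromosome 10, 33177492 to 33336262, minus strand), the co-receptor of KDR and a semaphorin 3A receptor, had 352, 2123 and 420 normalized reads under GOLPH3 and 708, 113 and 588 under Vector. In each group the same library was highest, and the same library lowest, for NRP1 and for VEGFA. The log2 difference of 0.91 (SE 0.74, 95% interval -0.70 to 2.51, adjusted p = 0.575, limma) did not pass, and it turned from 1.58 within the P12 libraries to -0.49 within the P13 libraries. The direction for NRP1 therefore depended on which pair of libraries was read.

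EGFL7 (ENSG00000172889; chromosome 9, 136658856 to 136672678, plus strand) encodes a secreted protein first known from endothelium and carries the microRNA gene MIR126 in an intron. Its normalized reads were 546, 901 and 1454 under GOLPH3 and 606, 177 and 1119 under Vector. The P13 library was the highest of each group and the ranges overlapped, with a log2 difference of 0.86 (SE 0.58, 95% interval -0.40 to 2.11, adjusted p = 0.490, limma). MIR126 itself had 0 reads in all 6 libraries, which is a count of its short annotated feature and says nothing of the mature microRNA. Antisense genes overlap several of the members, and none of them was given over 3 reads in any library, but the strand setting of the counting is not stated, so reads from either strand of a member cannot be told apart.

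**Figure D2:**
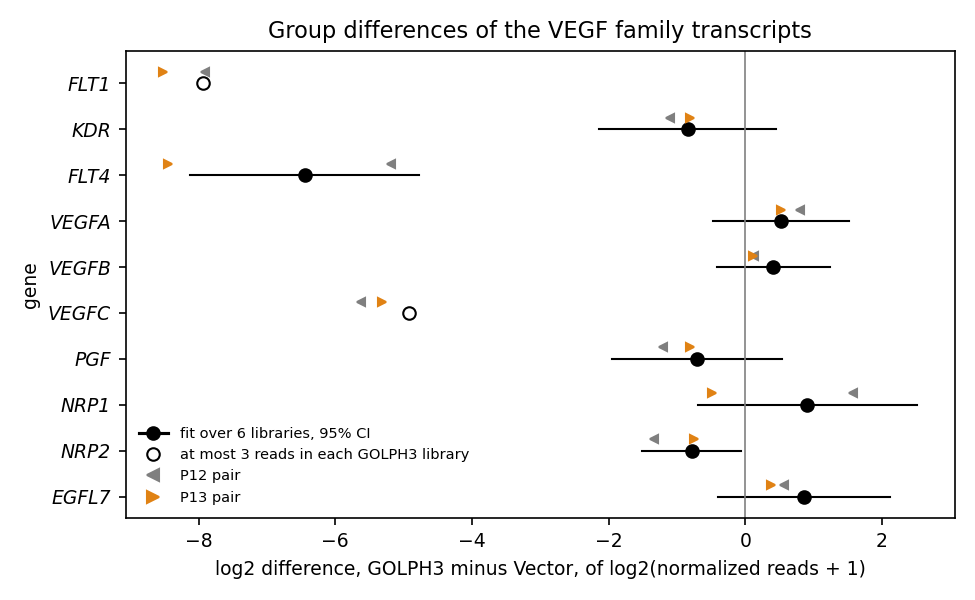
Difference between the labels for each gene of the VEGF family, GOLPH3 minus Vector on the log2(normalized reads + 1) scale, with the 95% interval of the limma fit and triangles for the P12 and P13 pairs. FLT4 lies at -6.45 with an interval under 0, FLT1 at -7.93 and VEGFC at -4.92 are drawn without an interval, and NRP1 changes side between the 2 pairs.

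Levels of different genes were compared per kilobase of the longest coding transcript in GENCODE 29. Under GOLPH3 the mean normalized reads per kilobase were 853 for VEGFA, 455 for EGFL7, 298 for VEGFB, 164 for NRP1, 83.0 for PGF and 45.1 for NRP2. The remaining genes were at most at 1.09, with FLT4 at 1.09, KDR at 0.948, FLT1 at 0.039 and VEGFC at 0. Under Vector the means were 555 for VEGFA, 298 for EGFL7, 234 for VEGFB, 136 for PGF and 104 for FLT4, followed by 79.8 for NRP1, 75.2 for NRP2, 45.5 for FLT1, 16.2 for VEGFC and 1.78 for KDR. The ranges of neighbours in either order overlapped, except between NRP2 and FLT4 and between KDR and FLT1 under GOLPH3, and between NRP2 and FLT1 and between VEGFC and KDR under Vector. FLT4 thus stood among the neuropilins and PGF under Vector and at the level of KDR under GOLPH3. The top of the order depends on the length used. Per kilobase of all annotated exons VEGFA came after EGFL7 and VEGFB under GOLPH3, at 209 against 379 and 266.

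Likeness across the 6 libraries is given as Pearson's r of log2(normalized reads + 1), without a test, since all points share the same libraries. For FLT1, FLT4 and VEGFC the split between the labels alone gives a high r, so none is given between them. In all 3 genes Vector replicate 2 was the lowest library of its group, as it was for the sum of the embryonic kidney and HEK293 genes. The same held for every other member except KDR, so it does not set these 3 genes apart. VEGFA followed NRP1 (r = 0.901), and VEGFB followed EGFL7 (r = 0.882). KDR ran with NRP2 (r = 0.943) and against VEGFA (r = -0.799). Every library labelled GOLPH3 was below every library labelled Vector for both KDR and NRP2, so the split between the labels enters their r too. The values of KDR rest on 4 to 14 reads per library.

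Among 12662 genes with a mean of at least 50, the 5 whose pattern was most like that of FLT1 over the 6 libraries were EYA1, SFMBT2, PPM1E, CELF2 and CT45A10, with r from 0.9996 down to 0.9988. EYA1, a transcription cofactor of kidney and ear development, is one of the embryonic kidney genes above. It had 0, 0.825 and 0 normalized reads under GOLPH3 and 143, 57.0 and 130 under Vector. SFMBT2, CELF2 and CT45A10 likewise had no more than 1 read in a library labelled GOLPH3, and PPM1E had 18.1 to 22.3 normalized reads there. An r over 0.95 with FLT1 was found for 376 genes, and any gene near 0 under GOLPH3 and expressed under Vector comes close to it. For VEGFA the 5 most alike were GADD45A, STK40, IRF1, PFDN2 and MANBAL, with r from 0.997 to 0.994, and 167 genes exceeded 0.95. GADD45A, a growth arrest gene induced by stress, had 1026, 8144 and 3436 normalized reads under GOLPH3 and 3580, 659 and 1799 under Vector. Like VEGFA it was highest in the P12 library of each group.

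Genes that neighbour FLT1 were examined to see whether its difference extended along the chromosome. Of 11 protein-coding genes that start within 1 Mb of the FLT1 start, 9 were tested and none was called by limma, and DESeq2 and edgeR on the recovered reads called 0 as well. Over all genes tested, limma called 5.07%, so 0 of 9 is near the background. In limma 2 of them had an unadjusted p under 0.05, as did 17.6% of all genes. These were SLC46A3 (log2 difference -1.12, adjusted p = 0.209) and MTUS2 (-1.40, adjusted p = 0.277), which start 224 and 325 kb from FLT1. PAN3, whose product trims poly(A) tails and whose gene ends closest to FLT1, had a difference of -0.07, and POMP, a proteasome assembly factor on the other side, had -0.16. FLT3, the receptor tyrosine kinase gene next in the row, had 9.44 to 14.2 normalized reads in the 6 libraries and a difference of -0.01. LNX2 (-0.20), POLR1D (0.02), PDX1 (-0.83) and CDX2 (-0.52) did not pass, and GSX1 and URAD were at or near 0 throughout. With the P number as a block 2 of the 9 were called, where that fit called 6082 of all 26536 genes tested.

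**Figure D3:**
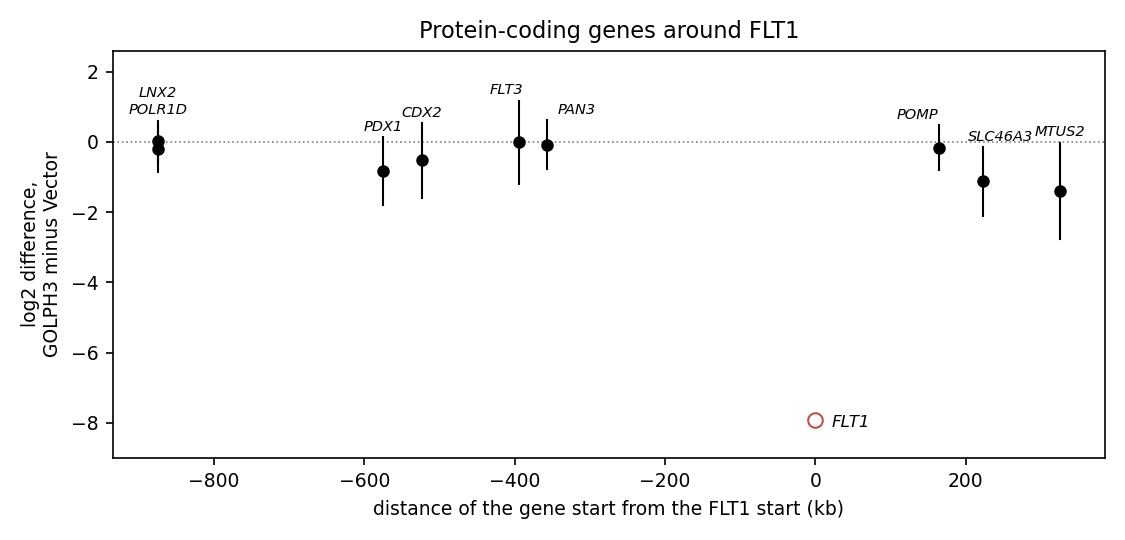
Difference between the labels for the 9 tested protein-coding genes within 1 Mb of FLT1, GOLPH3 minus Vector on the log2(normalized reads + 1) scale with 95% intervals, against the distance of their start from the FLT1 start in kilobases. The neighbours lie between -1.40 and 0.02, and FLT1, drawn as an open circle without an interval, at -7.93.

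Receptors and ligands related to the VEGF family include the PDGF, KIT and angiopoietin systems. Of 18 such genes 17 were tested, and 3 were lower and none higher (limma), against 4.12% lower and 0.953% higher over all genes, with a list median of -0.01. Of the 3, PDGFRA and ANGPT1 passed the filter on low values only through the Vector libraries and had to differ. KIT had the same form, with 1 read in all under GOLPH3, so the values of all 3 are given without a test. KIT, the stem cell factor receptor, had 0, 0 and 1.07 normalized reads under GOLPH3 and 119, 61.3 and 259 under Vector. That is 1 read against 474, a scaled ratio of 479 that rests on this 1 read. Against the limit of 3 reads in a library, KIT was at least 45.5-fold lower. PDGFRA, a PDGF receptor, had 1 read against 41, a scaled ratio of 41.4 with an exact 95% interval from 7.03 to 1676. ANGPT1, the ligand of the TEK receptor, had no read under GOLPH3 and 5.48 to 11.3 normalized reads under Vector, so it was at least 2.54-fold lower. KITLG, the ligand of KIT, was the most abundant gene of the list and ranged from 2159 to 14059 normalized reads under GOLPH3 and from 3949 to 15286 under Vector (adjusted p = 0.740). PDGFB had 511, 2504 and 1722 under GOLPH3 and 789, 216 and 365 under Vector, with a log2 difference of 1.71 that did not pass (adjusted p = 0.127).

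The neuropilin partners are the class 3 semaphorins, their plexins and the adaptor GIPC1. All 13 were tested, 1 was higher and 1 lower (limma), against 0.953% and 4.12% of all genes, and the median was 0.05. SEMA3B, a secreted semaphorin that binds neuropilins, rose by 2.07 on the log2 scale (adjusted p = 0.0192), from 572, 175 and 362 normalized reads under Vector to 821, 1580 and 2095 under GOLPH3. Its call was lost without GOLPH3 replicate 3 (0.0941) or Vector replicate 3 (0.0636). PLXNA2, a plexin that signals for semaphorins bound to neuropilin, had 138, 158 and 234 under GOLPH3 and 535, 420 and 633 under Vector (log2 difference -1.59, adjusted p = 0.0149), a call lost without Vector replicate 1 (0.103) or 3 (0.0885). GIPC1 and PLXNA1, the most abundant of the list, had log2 differences of 1.03 (adjusted p = 0.226) and 0.30 (adjusted p = 0.692).

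Genes that carry the signal of VEGF receptors onward numbered 52, all tested. Of these 2 were higher and 2 lower (limma), against 0.953% and 4.12% of all genes, and the median was 0.03. MAPK13, a p38 kinase, had 1022, 1229 and 1348 normalized reads under GOLPH3 against 357, 412 and 324 under Vector (log2 difference 1.71, adjusted p = 0.00270). NOS3, the endothelial nitric oxide synthase, had a log2 difference of 1.44 (adjusted p = 0.0328), which did not pass when any 1 library other than GOLPH3 replicate 1 was left out (0.0869 to 0.167). PRKCB, a protein kinase C activated downstream of KDR, had no read under GOLPH3 and 275, 175 and 390 normalized reads under Vector, so it was at least 87.0-fold lower. It passed the filter only through the Vector libraries, and no test is given. PIK3R3, a regulatory subunit of PI3 kinase, had a log2 difference of -1.85 (adjusted p = 0.0213) and was not called without GOLPH3 replicate 2 (0.0718) or 3 (0.066) or Vector replicate 1 (0.102) or 3 (0.127). HSPB1, the small heat shock protein at the end of the p38 branch, had a mean of 9283 ± 3670 under GOLPH3 and 3229 ± 1538 under Vector (SD, n = 3) and missed the threshold (adjusted p = 0.0509). RAC1 had means of 6229 and 6221.

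VEGFA is induced by hypoxia inducible factor (HIF), so the HIF regulators and other hypoxia-inducible transcripts were listed beside it. None of the 10 HIF regulators was called by limma, DESeq2 or edgeR, while 2 had an unadjusted p under 0.05 in limma, and the median was -0.09. Over all genes limma called 5.07%, and 17.6% had an unadjusted p under 0.05, so both counts are near the background. HIF1A, the oxygen-regulated subunit, had 2881 ± 1101 normalized reads under GOLPH3 and 3520 ± 1140 under Vector (SD, n = 3), with a log2 difference of -0.32 (95% interval -1.14 to 0.50, adjusted p = 0.721). HIF1AN, the asparagine hydroxylase that inhibits HIF, had a difference of 0.11 (adjusted p = 0.865). Of 14 hypoxia-inducible transcripts 1 was higher and none lower, against 0.953% and 4.12% of all genes, with a median of 0.34. That gene was NDRG1, with 2756, 2896 and 8581 normalized reads under GOLPH3 and 1199, 1444 and 1230 under Vector (log2 difference 1.67, adjusted p = 0.0328), a call lost without GOLPH3 replicate 3 (0.0881) or Vector replicate 1 (0.127) or 3 (0.107). The glycolytic genes ENO1 and LDHA had differences of 0.45 (adjusted p = 0.529) and 0.06 (adjusted p = 0.952).

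**Figure D4:**
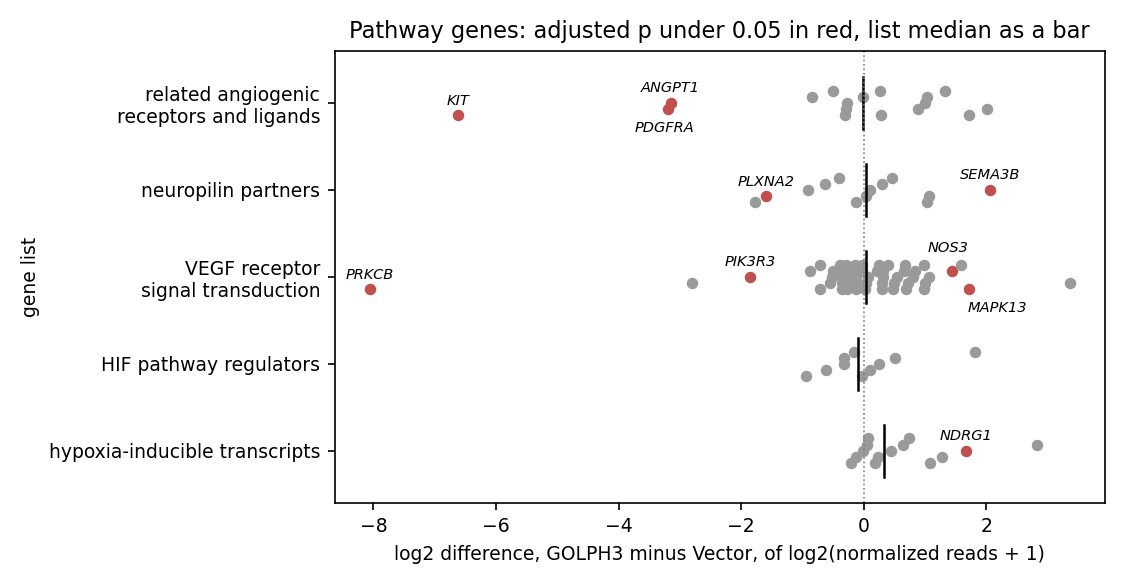
Difference between the labels for each tested gene of 5 pathway lists, GOLPH3 minus Vector on the log2(normalized reads + 1) scale, with called genes in red and the list median as a bar. The list medians lie between -0.09 and 0.34, and the called genes reach from PRKCB, KIT and the other low genes on the left to SEMA3B at 2.07 on the right. PRKCB, KIT, PDGFRA and ANGPT1 are red by the same threshold, but they are given without a test.

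VEGF receptors are best known from endothelium, so its markers were read as well. Of 12 endothelial markers 9 were tested, and 1 was higher and none lower (limma), against 0.953% and 4.12% of all genes. The gene was MMRN2 (log2 difference 1.88, adjusted p = 0.0315, limma), a call lost in 4 of the 6 fits without 1 library (0.0736 to 0.171). The sum of the 12 was 391 to 726 normalized reads under GOLPH3 and 242 to 421 under Vector. ESAM was the most abundant of them under Vector, at 139 to 263, followed by MMRN2 at 43.8 to 70.4 and ROBO4 at 12.1 to 71.0. ECSCR was at 0 in every library, ERG, EMCN and TEK had at most 3 reads, and CDH5 had at most 4. The part of such cells in the levels of FLT1 and FLT4 was not tested. The sum of 12 colon epithelial markers was 62853 to 134420 under GOLPH3 and 30124 to 41227 under Vector. The keratin gene KRT8 alone had 25226 to 75110 and 13626 to 23728 normalized reads. Of the 12 colon markers, 2 had at most 3 reads in every library. What the sums say about the identity of the cells was not tested. Of the 10 tested, KRT18 and KRT19 were higher and the intestinal stem cell marker LGR5 was lower, against 0.953% and 4.12% of all genes, while KRT20 was at 0 throughout. The call of KRT18 (adjusted p = 0.0363, limma) was lost with quantile normalization (0.0675), with a pseudocount of 0.1 (0.0521) and in 5 of the 6 fits without 1 library (0.0549 to 0.195). Fibroblast and leukocyte markers had no call in 7 and 4 tested genes (limma, DESeq2 and edgeR), of which 4 and 0 had an unadjusted p under 0.05 in limma. Of those 4 fibroblast and mural genes, 2 were higher and 2 lower under GOLPH3. Over all genes tested, limma called 5.07%, DESeq2 8.68% and edgeR 6.58%, and 17.6% had an unadjusted p under 0.05 in limma. The 4 of 7 was thus above that last share, and no call does not mean no difference.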

How the data were processed

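Total RNA from Trizol lysates of 3 samples per group was sequenced. Each deposited signal is what the authors obtained for a gene by dividing its read count by a size factor of the library. At least 99.98% of values in a library were whole multiples of a single step, within 0.02 of a whole read, so the reads were recovered. The submitters' processing notes name fastp 0.20.0, HISAT2 2.1.0, featureCounts 1.6.1, Cufflinks, DESeq2 and GRCh38, without roles or order. The annotation release and the strand setting are not given in the sources used here.

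The table had 60590 rows for 60546 identifiers, and 44 second rows were added to the first. Coordinates came from GENCODE 29, which held 96.4% of the identifiers, and promoters from RefSeq. Values were tested as log2(value + 1) with limma 3.58.1 (R 4.3.3, eBayes with a trend), after a filter that kept the 26536 genes at or above 1 normalized read in 3 or more libraries. A gene was called at a Benjamini-Hochberg adjusted p under 0.05 over all genes tested. Fold changes of low genes are understated on this scale. Gene-level values add up all splice forms. No 2 libraries of a group agreed within sampling noise (chi-square per degree of freedom at least 65.35), and each was counted as a sample. Mitochondrial genes took 4.41% to 9.97% of reads.

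Alternatives were edgeR 4.0.16 and DESeq2 1.42.0 on the recovered reads, TMM scaling, quantile normalization, a pseudocount of 0.1, no filter, a filter in every library, the replicate number or the P number as a block, and each library left out. A filter of at least 1 normalized read in 2 libraries, with a Vector library left out, was added after seeing the data. The fits were tested on simulated counts. The members and gene lists were chosen with earlier results of these data known. Named are all members, the called genes of each list (up to 4) and its 2 most abundant, the 5 genes most like FLT1 and VEGFA, and the protein-coding genes within 1 Mb of FLT1. Cell type markers are named where a result touches them.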

Additional observations from a re-analysis of the deposited data

How the results depend on the processing

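Counts of members called include FLT1 and VEGFC, which passed the filter only through the Vector libraries, so such counts are no support. The log2 differences of the 9 members other than FLT1 kept their direction and their side of the threshold in 121 of 121 values from the alternatives listed at the outset, other than the P block. VEGFC is among these 9, and its part of the 121 values is no support either. For members that did not pass, the same side of the threshold says little about size. With 1 library left out the difference was 0.07 to 1.39 for NRP1, 0.08 to 1.015 for VEGFA and 0.12 to 1.44 for EGFL7. It was 0.11 to 0.75 for VEGFB, -1.21 to -0.15 for PGF, -1.04 to -0.55 for KDR and -0.97 to -0.50 for NRP2. With the P number as a block VEGFA (0.67), PGF (-1.003) and NRP2 (-1.04) passed. That block uses the P12 and P13 pairs alone and called 6 members and 6082 of all 26536 genes tested (2636 higher, 3446 lower). It also called 2 genes near FLT1, 8 related receptors and ligands, 5 neuropilin partners, 19 signalling genes, 1 HIF regulator and 5 hypoxia-inducible genes. The fitted difference of FLT1 was -9.84 with DESeq2, -9.50 with edgeR and -10.47 with a pseudocount of 0.1.

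Requiring 1 normalized read in every library left 8 members tested and 1 called, because FLT1 and VEGFC fell short of it, and gave 405 genes in all, 0 related genes, 2 signalling genes and 0 hypoxia-inducible genes. DESeq2 called 1991 genes and edgeR 1113, with 5 and 1 related genes. DESeq2 also called 7 signalling and 3 hypoxia-inducible genes, and a pseudocount of 0.1 called 0 of the latter.

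With 1 library left out, the counts were 1 to 3 members, 459 to 1528 genes in all, 1 to 4 related genes, 0 to 3 neuropilin partners, 1 to 8 signalling genes and 0 to 2 hypoxia-inducible genes. The 1 came from leaving out a Vector library, after which FLT1 and VEGFC had only 2 libraries with a read and were not tested. With the filter lowered to 2 libraries, added after seeing the data, these 2 passed the filter again, and the fits gave 837, 1237 and 717 genes in all without Vector replicates 1, 2 and 3. All genes called fell to 459 without Vector replicate 1, 481 without Vector replicate 3, 881 without GOLPH3 replicate 3 and 895 without Vector replicate 2.

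Samples with the same replicate number were not treated as pairs, since their deviations from the group means correlated at -0.232, -0.151 and 0.259 for numbers 1, 2 and 3. The libraries numbered 3 also share P13, and the P12 libraries correlated at 0.256. The highest correlation between the labels was 0.331, for GOLPH3 replicate 1 (P8) with Vector replicate 2 (P11). A fit that pairs these P8 and P11 libraries beside the P12 and P13 pairs was not run. The replicate block called 1081 genes and 1 neuropilin partner, and changed no member. Precision is limited by 3 libraries per group and, for KDR, by 4 to 14 reads per library.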
